A study of Mus musculus and Mus musculus musculus x Mus musculus castaneus with 8 samples.

Results

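Some DNA sites were accessible in C2C12 cells, a mouse myoblast line, but gave no peak of accessibility in mouse embryonic fibroblasts (MEFs). A small part of them overlapped such a peak once MEF nuclei had been transplanted into oocytes. These gained myoblast sites were chosen by the overlap of peak positions in 4 lists of ATAC-seq peaks. A site was taken when a peak of C2C12 cells (50000 cells) overlapped no peak of donor MEFs but overlapped, by 1 bp or more, a peak of MEFs 48 h after nuclear transfer (NT) or a peak of MEFs at the same time after NT with Toca1 overexpression in the oocytes. Of 52697 C2C12 peaks, 1795 met the rule. The C2C12 cells carry the strain label C3h and were not transplanted. The embryos that gave the MEFs were a cross, labelled as Musculus musculus with Mus musculus castaneus, and the cells were permeabilized before use, 3000 for each library. After NT a library held pooled oocytes. Their nuclei were injected into Xenopus laevis oocytes either without further treatment (control NT) or with overexpression of Toca1, also called Fnbp1l, a protein that promotes actin polymerization. The lists stand for 2 libraries of C2C12 cells, 1 of donor MEFs, 2 after control NT and 1 with Toca1. Cell type, strain, number of cells and number of libraries differ together between the C2C12 and donor MEF lists and cannot be told apart.

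ATAC-seq uses a transposase that cuts and tags accessible DNA, so that a pile of fragments, called a peak, marks a nucleosome-poor site. Promoters of widely used genes are open in most cell types, whereas distal sites are more often open in one lineage only. Oocytes of Xenopus hold large stores of chromatin and transcription factors, and a transplanted nucleus in the germinal vesicle changes its transcription without dividing or copying its DNA.

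Each list gives only the position of peaks that passed a false discovery rate of 0.01, in build mm9, and no reads, so that the depth is unknown for every peak. With 1 list per condition there are no replicate values and no p-value was computed. An effect of Toca1 cannot be told apart from one of library or of depth. The lists held 39592 peaks for donor MEFs, 8257 after control NT and 16412 with Toca1, with median widths of 399, 291 and 467 bp. Intervals below are 95% Wilson intervals for a share and 95% Newcombe intervals for a difference between 2 shares. They cover counting error over peaks only. Because the rule used the lists of donor MEFs, control NT and Toca1, overlaps with these lists at the gained sites are descriptions.

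Sites lacking a donor MEF peak made up 27184 of the C2C12 peaks, and 6.60% of them were gained, which is the share fixed by the rule. Among the 25513 C2C12 peaks that donor MEFs shared, 31.4% lay on a peak after control NT or with Toca1. Most gained sites came from the Toca1 list. That list also held more peaks without a donor peak in all, 8941 against 4384 after control NT. Of these peaks, 19.8% of those after control NT lay on a Toca1 peak, and 7.97% of those with Toca1 lay on a control NT peak. Gained sites are counted as C2C12 peaks, so their split by list was not compared directly with these shares. The Toca1 list alone gave 1303 sites (72.6%, interval 70.5% to 74.6%), control NT alone gave 229 (12.8%, 11.3% to 14.4%), and 263 sites (14.7%, 13.1% to 16.4%) were found in both. A control NT peak therefore overlapped 492 sites, and a Toca1 peak 1566. The remaining 25389 C2C12 peaks without a donor peak are called not gained.

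**Figure D1:**
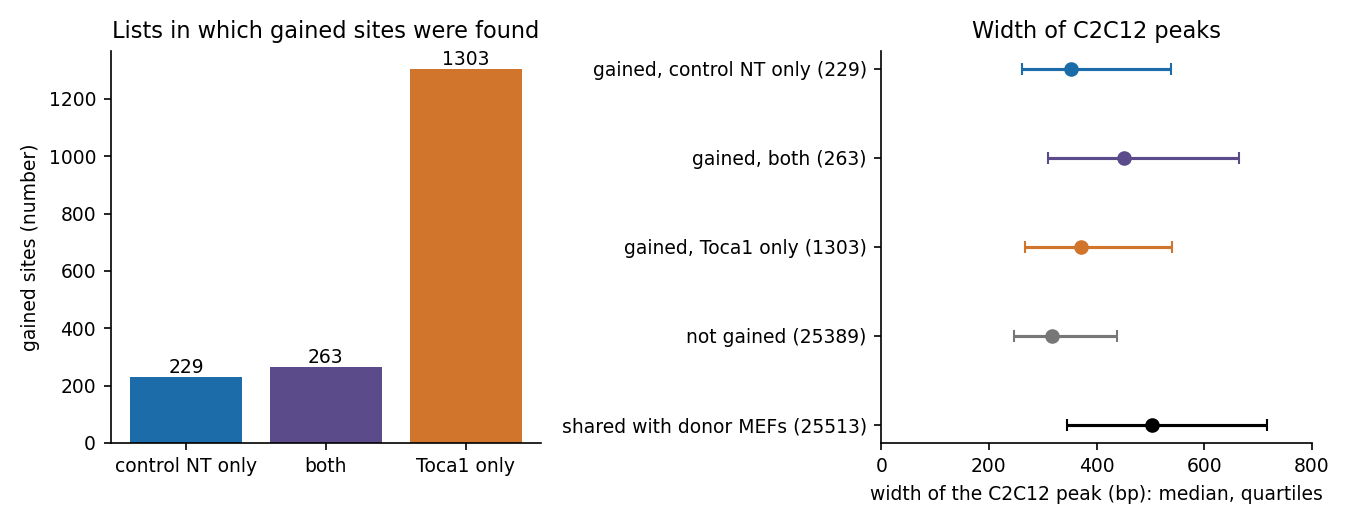
Left, number of gained sites by the NT list in which they were found (bars, from 0). Right, width in bp of the C2C12 peak for the gained sites of each kind, for C2C12 peaks without a donor peak that were not gained and for C2C12 peaks shared with donor MEFs (point, median; bar, quartiles; number of peaks in brackets). The median was 452 bp for sites found in both NT lists, 318 bp for sites not gained and 503 bp for shared peaks.

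Gained sites had wider C2C12 peaks than sites that were not gained, with medians of 381 and 318 bp and quartiles of 272 to 558 bp and 246 to 438 bp. Of C2C12 peaks without a donor peak, 4.86% (4.37% to 5.39%) were gained among those up to 248 bp wide and 10.3% (9.64% to 11.1%) among those over 445 bp. A wider C2C12 peak meets a rule of 1 bp of overlap more easily, so these width differences are partly built into the rule. The widest class was also the highest for each list taken alone. In these narrowest and widest classes control NT covered 1.26% and 3.21% of peaks, and Toca1 covered 4.16% and 9.11%.

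Gained sites lay on all 20 chromosomes. Chromosome 11 held the most, 153 sites, and chromosome X the fewest, 31 sites. As a share of the C2C12 peaks without a donor peak, the lowest value was 4.78% on chromosome 15 (3.85% to 5.91%) and the highest was 9.48% on chromosome 19 (7.63% to 11.7%). Chromosome 11 followed at 9.35% (8.03% to 10.9%). The whole interval lay above the share of 6.60% over all chromosomes for chromosomes 5, 11 and 19, and below it for chromosomes 6, 10 and 15. Among 20 intervals of this level some can fall outside by counting error alone.

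**Figure D2:**
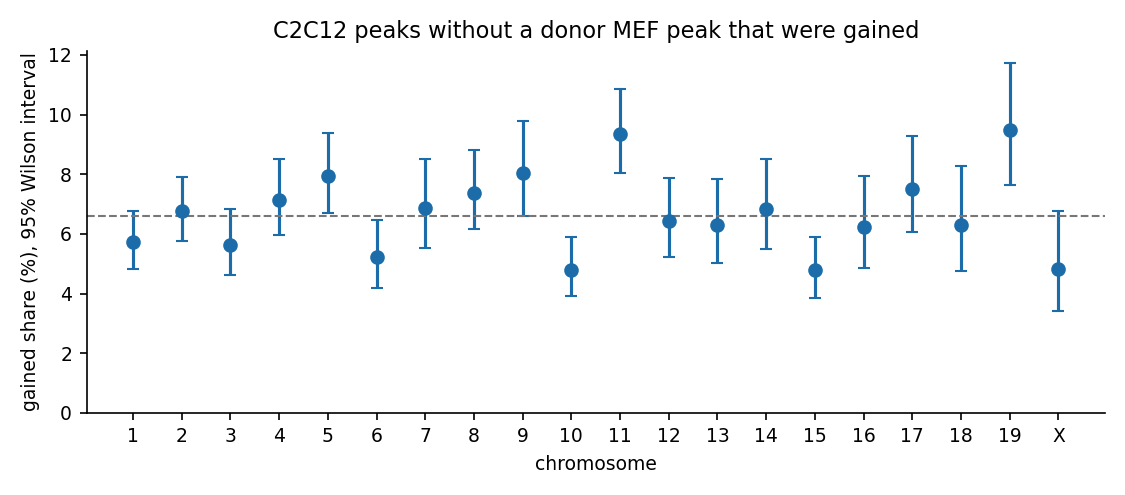
Share in % of the C2C12 peaks without a donor MEF peak that were gained, for each chromosome (point, share; bar, 95% Wilson interval; dashed line, 6.60% over all chromosomes). Chromosomes 5, 11 and 19 lie above the line and chromosomes 6, 10 and 15 below it, each with its whole interval.

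After control NT, the centre of the peak lay inside the C2C12 peak at 378 of 492 sites (76.8%), and the centres were 105.25 bp apart in the median, with quartiles of 41.5 and 219 bp. The control NT peaks were narrow, with a median of 315 bp, and covered 57.2% of the C2C12 peak in the median. Toca1 peaks, at 1566 sites, had a median width of 619 bp. These covered 80.8% of the C2C12 peak in the median, and their centres were 169 bp from those of the C2C12 peaks and inside them at 899 sites (57.4%). At the 263 sites found in both lists the Toca1 peak was the wider one at 213 sites, the control NT peak at 45, and both were equally wide at 5. The median widths at these sites were 452 bp in C2C12 cells, 367 bp after control NT and 683 bp with Toca1.

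Donor MEF peaks flanked many gained sites at a short distance. The nearest donor peak was 3337 bp away in the median, edge to edge, against 11956 bp for sites not gained. It lay less than 500 bp away at 580 gained sites (32.3%) and at 8.59% of sites not gained. Gained sites at least 5000 bp from any donor peak numbered 819 (45.6%, 43.3% to 47.9%). The nearest donor peak was 6401 bp away in the median for control NT only, 5225 bp for both lists and 2483 bp for Toca1 only. At 50 of the 492 control NT sites (10.2%, 7.79% to 13.1%) the NT peak itself also touched a donor peak, and at 395 of the 1566 Toca1 sites (25.2%, 23.1% to 27.4%) the Toca1 peak did. An NT or Toca1 peak free of any donor peak was present at 1419 of all gained sites (79.1%, 77.1% to 80.9%). The share at least 5000 bp away depended on what counted as overlap, and was 25.1% when both peaks had to overlap by at least 50%. That setting applied to donor peaks as well, so sites with a smaller overlap with a donor peak were let in.

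**Figure D3:**
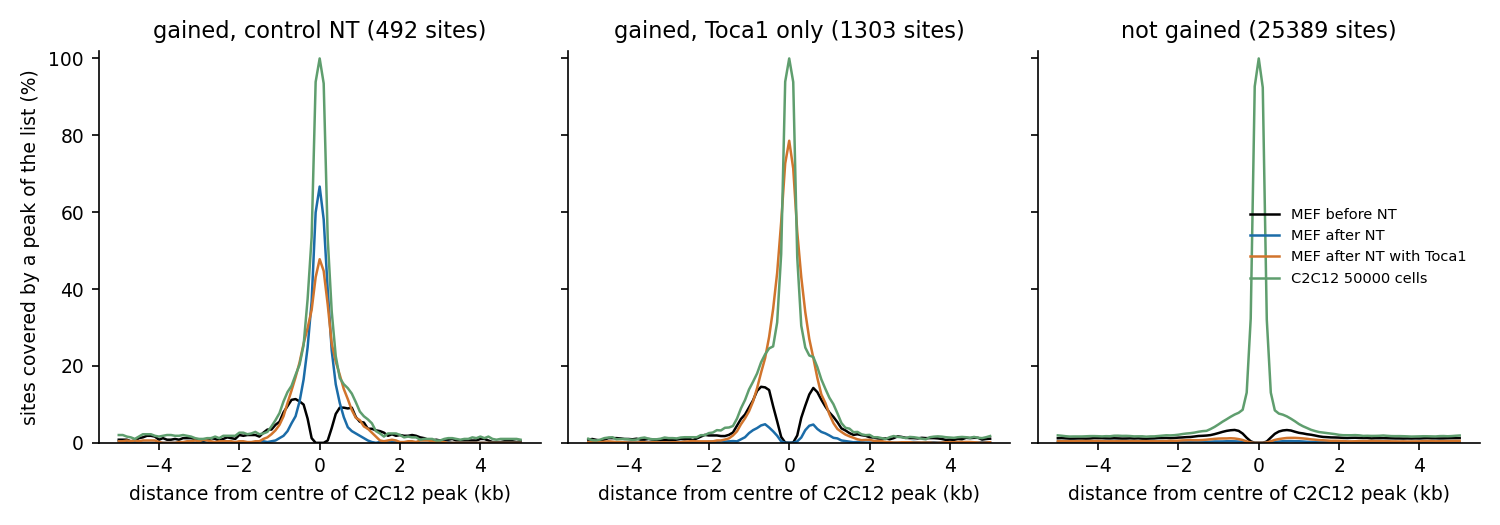
Share in % of sites that a peak of each list covered, against the distance in kb from the centre of the C2C12 peak, for the 492 gained sites found after control NT, the 1303 found with Toca1 only and the 25389 not gained (lines, 1 for each list). At the centre, control NT peaks covered 66.7% and Toca1 peaks 47.8% of the control NT sites, and Toca1 peaks covered 78.6% of the Toca1-only sites. Donor MEF peaks are at 0 at the centre by the rule, and 500 bp to the right they covered 9.15% of the control NT sites, 12.6% of the Toca1-only sites and 2.94% of the sites not gained.

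Both edges of the rule are narrow. The overlap with an NT or Toca1 peak was 1 bp at the sites chr13:21371434-21371916, chr2:179839006-179839401 and chr9:4375909-4376110. It was under 50 bp at 67 gained sites (3.73%). Just outside, the sites chr5:130698712-130698909 and chr8:90723585-90724595 missed an NT or Toca1 peak by 3 bp and chr5:115643211-115643627 by 4 bp. On the side of the donor cells, the site chr17:6987449-6987628 directly adjoined a donor peak, with a gap of 0 bp, chr15:99602241-99602624 lay 1 bp away and chr18:53576954-53577498 lay 3 bp away. The sites chr11:86358602-86358762, chr17:17760871-17761162 and chr18:35278933-35279140 were left out for 1, 4 and 5 bp of overlap with a donor peak. Within 50 bp of a donor peak lay 47 gained sites (2.62%).

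Whether peaks of transplanted nuclei on myoblast sites reappeared in the other NT list was examined next. For this, peaks after control NT without a donor peak (new peaks) were set apart by whether they lay on a C2C12 peak, and the Toca1 list, which played no part in that choice, was then compared. Of 4384 new control NT peaks, 19.8% were found with Toca1. The share was 54.0% (50.0% to 57.9%) for the 604 new peaks on a C2C12 peak and 14.3% for the 3780 new peaks on none. The difference was 39.7 percentage points (interval 35.5 to 43.8), and it was positive on each of 20 chromosomes. Of the 604 peaks, 442 lay on a gained site. The others lay on C2C12 peaks that themselves overlapped a donor peak elsewhere.

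Peak width moved with this result, since new control NT peaks on C2C12 peaks were wider, with medians of 287.5 and 239 bp. Within classes of equal width the difference remained. Among new control NT peaks up to 203 bp wide, 34.1% of those on a C2C12 peak and 6.31% of the others were found with Toca1, a difference of 27.8 points (18.3 to 38.7). Among those over 320 bp wide the shares were 64.4% and 25.8%, a difference of 38.6 points (31.7 to 45.1). The difference was also present far from donor peaks. At least 5000 bp from every donor peak, 52.1% of 259 and 13.3% of 2887 new peaks were found with Toca1, a difference of 38.8 points (32.6 to 44.9).

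In the reverse direction, new Toca1 peaks were divided in the same way and compared with the control NT list. Of 8941 new Toca1 peaks, 7.97% were found after control NT. The share was 17.8% (15.8% to 20.0%) for the 1277 on a C2C12 peak and 6.34% for the 7664 on none, a difference of 11.4 points (9.36 to 13.7), which was positive on 20 of 20 chromosomes. It was 6.10 points (2.71 to 11.2) among peaks up to 242 bp wide and 10.9 points (7.18 to 15.0) among those over 512 bp. Peaks on a C2C12 peak made up 13.8% (12.8% to 14.8%) of the new peaks after control NT and 14.3% (13.6% to 15.0%) of those with Toca1. These intervals overlapped. They also overlapped, with the share lower with Toca1, for peaks at least 250 bp wide (17.9% after control NT and 16.1% with Toca1). The same held for C2C12 peaks also found from 1000 cells (1.28% and 1.02%). A setting for overlap or distance applied to donor peaks as well, so it also changed which peaks counted as new. The intervals no longer overlapped under 3 other settings, where the share was higher with Toca1. It was 9.04% (8.33% to 9.80%) and 16.6% (15.9% to 17.3%) with a reciprocal overlap of at least 50%, 8.23% (7.32% to 9.24%) and 10.2% (9.49% to 10.96%) at least 5000 bp from donor peaks, and 12.4% (11.4% to 13.5%) and 14.8% (14.1% to 15.6%) when a gap of up to 500 bp was allowed.

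The C2C12 list from 1000 cells, which stands for 2 further libraries amplified without purifying the DNA first, was not used by the rule either. It held 34771 peaks but covered only 5.62% of all peaks of the 50000-cell list, which limits its use as a reference. The study, in contrast, reports that reads near transcription starts from 1000 and 50000 cells clustered together. The reason for the low overlap of the lists was not tested. The 1000-cell list covered 92 gained sites (5.13%, 4.20% to 6.24%), an interval that holds the share over all peaks, so that gained sites did not stand above it. Sites not gained were covered in 2.56% of cases, a difference of 2.56 points (1.61 to 3.70). The share was higher for gained sites on 18 of 20 chromosomes, and lower on chromosomes 6 and X. Within the 4 width classes the difference ran from 1.43 points (0.00858 to 3.86) to 3.32 points (1.41 to 6.24). Sites found in both NT lists had the highest share, 7.98% (5.28% to 11.9%), but its interval overlapped those of the sites found after control NT only (4.80%, 2.70% to 8.40%) and with Toca1 only (4.60%, 3.59% to 5.88%). Gained sites stayed below the 8.70% of C2C12 peaks shared with donor MEFs.

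**Figure D4:**
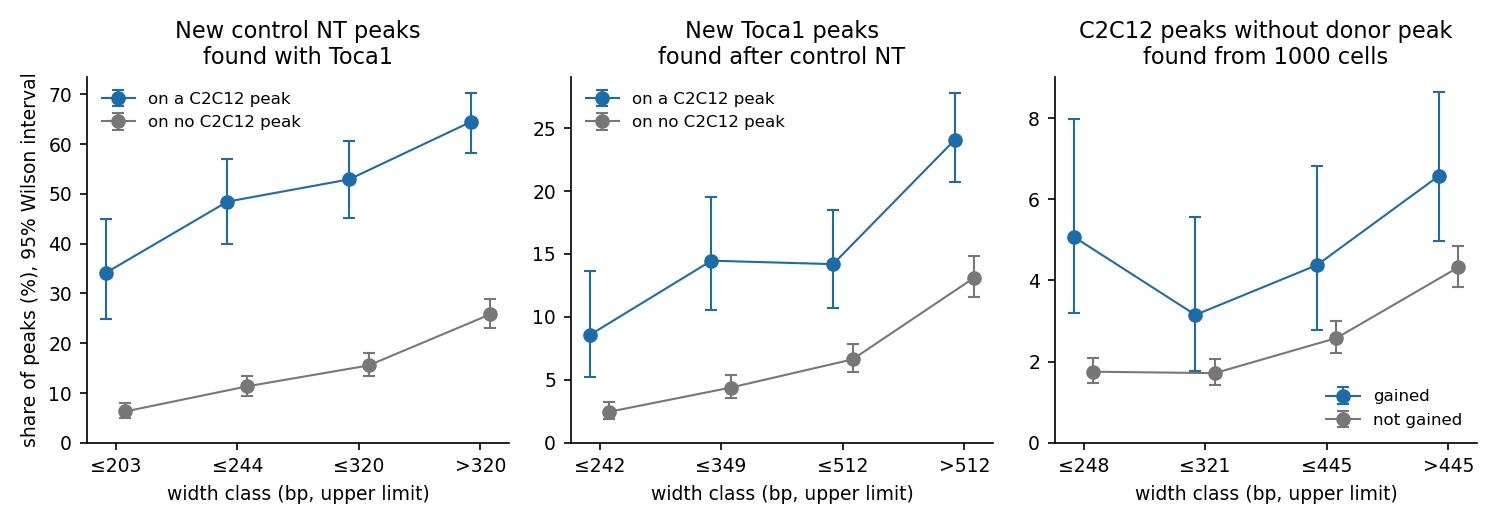
Share in % of peaks found in a list that did not choose them, by width class in bp (point, share; bar, 95% Wilson interval). Left and middle, new control NT peaks found with Toca1 and new Toca1 peaks found after control NT, on a C2C12 peak (blue) and on none (grey). Right, gained (blue) and not gained (grey) C2C12 sites found from 1000 cells. Blue lies above grey in every class, from 34.1% against 6.31% to 64.4% against 25.8% in the left plot.

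Genes at the gained sites were named from the positions and gene names in the study's tables of newly opened peaks and genes, since no gene annotation in build mm9 was used here. These tables cover control NT peaks at least 5000 bp from donor peaks, and the one that places peaks at promoters and in gene bodies takes genes free of donor peaks. Names were held for 225 of the 492 gained sites found after control NT, and sites found with Toca1 only are given by position. Promoters were more frequent at gained sites than at newly opened peaks on no C2C12 peak. The study reports that C2C12 peaks as a whole are overrepresented near transcription starts. No promoter share was held for C2C12 peaks that were not gained or that donor MEFs shared. The comparison therefore does not set gained sites apart from other C2C12 peaks. Of 259 such control NT peaks on a gained site, 79 (30.5%, 25.2% to 36.4%) were at a promoter, against 146 of 2887 (5.06%, 4.32% to 5.92%) on no C2C12 peak. The difference was 25.4 points (20.1 to 31.4). Peaks outside genes showed the opposite order, 48 (18.5%, 14.3% to 23.7%) against 41.5% (39.7% to 43.3%), and those in gene bodies numbered 15 (5.79%, 3.54% to 9.33%) against 10.2% (9.17% to 11.4%). In both sets over 40% of peaks had no such place, 45.2% and 43.3%. At gained sites, many of these peaks still carried a gene name, as at Ssh2 and Kif21a. The shares at promoters and in gene bodies therefore count only genes free of donor peaks, and are not shares over all genes.

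The promoter share was higher at gained sites in each width class, from 13.9% (6.08% to 28.7%) against 3.36% among peaks up to 203 bp wide to 37.0% (28.8% to 45.9%) against 7.54% among those over 315 bp. Of the 79 promoter peaks at gained sites, 47 (59.5%, 48.5% to 69.6%) were found with Toca1, against 54 of 146 promoter peaks on no C2C12 peak (37.0%, 29.6% to 45.1%). The former were wider, with medians of 329 and 279.5 bp, and the difference was seen in the wider classes only. It was 34.1 points (5.03 to 55.9) for peaks of 241 to 315 bp and 22.2 points (2.13 to 39.8) above 315 bp, but −0.74 points (−28.1 to 28.4) for 203 to 241 bp and −3.08 points (−28.1 to 41.0) up to 203 bp, where gained sites gave 15 and 5 peaks. Outside genes the shares were 43.8% (30.7% to 57.7%) and 11.9% (10.2% to 13.8%). In gene bodies 3 of 15 peaks were found with Toca1 (20%, 7.05% to 45.2%), and this interval overlapped that of the 14.2% on no C2C12 peak.

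**Figure D5:**
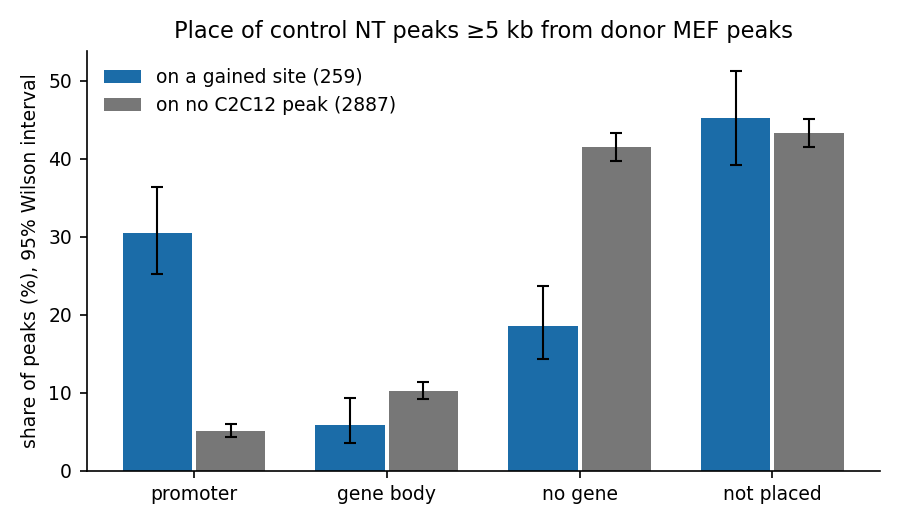
Share in % of control NT peaks at least 5 kb from any donor MEF peak that lay at a promoter, in a gene body, in no gene or had no place in the study's tables (bars from 0; error bars, 95% Wilson intervals), for 259 peaks on a gained site and 2887 on no C2C12 peak. Promoters took 30.5% and 5.06%, and peaks in no gene 18.5% and 41.5%. Promoters and gene bodies are those of genes free of donor peaks.

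The promoter sites belong to 78 genes, all of which are in the RefSeq gene table and 76 of which are protein coding. Lists of marker genes could hardly be looked up by these names. Of a list of 40 muscle genes, which includes the myogenic factors Myod1 and Myog, 5 had a name held at any newly opened peak, and 0 of these were at a gained site. Over all newly opened peaks 8.23% lay on a gained site, so that a count of 0 among 5 genes says nothing about muscle genes. A name was held for 1 of 12 fibroblast, 4 of 12 pluripotency, 1 of 10 oocyte and 0 of 10 immediate early and AP-1 genes, and 0 of these were at a gained site.

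The widest control NT peak that the study places at a promoter was at Sh2d4a, which encodes an SH2 domain adaptor. There the peak was 771 bp wide in C2C12 cells (chr8:70800357-70801127), 1002 bp after control NT and 958 bp with Toca1, and the nearest donor peak was 32372 bp away. At Tmem9b, a transmembrane protein gene, the widths were 1110 bp in C2C12 cells (chr7:116895472-116896581), 848 bp after control NT and 319 bp with Toca1. At B630019K06Rik on the X chromosome they were 941 bp (chrX:8469401-8470341), 836 bp and 525 bp. All 3 sites had a peak in both NT lists and none in the donor MEF list, and the 1000-cell list held no peak at them. At Tmem9b and B630019K06Rik the control NT peak was wider than the Toca1 peak, unlike at most sites found in both lists.

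Narrower control NT peaks followed at other promoters. Rbm22, a splicing factor gene, had 2 gained sites under a single control NT peak of 792 bp (chr18:60720067-60720530 and chr18:60720609-60720886), and a Toca1 peak of 314 bp reached only the first. Psmd12, which encodes a subunit of the proteasome, had a C2C12 peak of 608 bp (chr11:107340562-107341169), a control NT peak of 688 bp and a Toca1 peak of 585 bp, 5864 bp from the nearest donor peak. Sites without a Toca1 peak were those of Frmpd1, a scaffold protein gene (chr4:45197643-45197809, 712 bp after control NT), Sh2b1, an adaptor of receptor tyrosine kinases (chr7:133618581-133618751, 700 bp), and Arl10, a small GTPase gene with 2 gained sites under a peak of 688 bp (chr13:54676298-54676489 and chr13:54676546-54676871). At these genes the control NT peak was wider than the C2C12 peak under it.

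Further promoters were picked after their values had been seen, for their roles. Eif4a2, an RNA helicase of translation initiation, had widths of 734 bp in C2C12 cells, 390 bp after control NT and 908 bp with Toca1. Mrpl9, of the mitochondrial ribosome, had widths of 425, 436 and 525 bp in the same order. Ndufa1, of respiratory complex I, had 788, 248 and 462 bp, and the GTPase gene Nras had 232, 289 and 381 bp. Among developmental regulators, the homeobox gene Meis3 had 518, 379 and 791 bp. No Toca1 peak was present at the homeobox genes Pdx1 (287 bp in C2C12 cells, 197 bp after control NT) and Hopx (466 and 209 bp) or at the growth factor gene Fgf5 (828 and 205 bp), nor at Gps2, a subunit of a corepressor complex (693 and 231 bp). These examples do not compare kinds of genes. Klhl40, which encodes a kelch protein of the sarcomere in skeletal muscle, had a C2C12 peak of 342 bp (chr9:121686613-121686954) and a control NT peak of 376 bp. It had no Toca1 peak, and the nearest donor peak was 15952 bp away. Klhl40 was not on the list of 40 muscle genes. A single gene picked for its role does not link gained sites to muscle genes.

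Promoter sequences of RefSeq (build GRCm38.p6, matched by gene symbol) are printed to show the promoter DNA of genes named at gained sites. They are those of 4 of the genes with the widest control NT peaks, and of Klhl40, which was picked for its role. All these genes have a single listed start. Each is the 250 bases before the start, 5′ to 3′ on the strand of the gene, and capitals mark matches on either strand to the E-box CAGCTG, the AP-1 motif TGANTCA, the SP/KLF motif GGGCGGG or the ETS motif CCGGAAG. The windows are chr7:109752264-109752513 (minus strand), chr4:45184656-45184905 (plus), chr13:54574797-54575046 (plus), chr11:107479278-107479527 (plus) and chr9:121777357-121777606 (plus). They are in another build than the peaks, so a motif cannot be placed inside a peak here.
Tmem9b: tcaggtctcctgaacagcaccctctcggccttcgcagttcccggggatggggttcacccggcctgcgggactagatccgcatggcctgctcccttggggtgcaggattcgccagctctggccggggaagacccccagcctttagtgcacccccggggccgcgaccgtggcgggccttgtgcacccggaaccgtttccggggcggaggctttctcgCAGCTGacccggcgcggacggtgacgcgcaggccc
Frmpd1: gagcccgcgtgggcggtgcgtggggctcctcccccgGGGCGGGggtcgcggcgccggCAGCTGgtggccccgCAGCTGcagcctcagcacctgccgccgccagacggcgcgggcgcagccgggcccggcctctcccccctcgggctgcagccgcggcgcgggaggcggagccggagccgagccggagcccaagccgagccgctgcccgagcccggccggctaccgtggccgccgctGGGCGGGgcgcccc
Arl10: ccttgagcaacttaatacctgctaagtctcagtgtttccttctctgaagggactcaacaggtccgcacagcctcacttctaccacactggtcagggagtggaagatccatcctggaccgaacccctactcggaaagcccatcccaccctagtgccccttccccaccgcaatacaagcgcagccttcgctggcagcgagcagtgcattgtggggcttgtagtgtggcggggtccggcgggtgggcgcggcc
Psmd12: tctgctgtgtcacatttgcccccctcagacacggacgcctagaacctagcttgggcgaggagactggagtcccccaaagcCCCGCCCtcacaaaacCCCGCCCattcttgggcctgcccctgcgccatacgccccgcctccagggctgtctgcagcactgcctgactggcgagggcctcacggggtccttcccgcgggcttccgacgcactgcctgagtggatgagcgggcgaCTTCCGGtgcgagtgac
Klhl40: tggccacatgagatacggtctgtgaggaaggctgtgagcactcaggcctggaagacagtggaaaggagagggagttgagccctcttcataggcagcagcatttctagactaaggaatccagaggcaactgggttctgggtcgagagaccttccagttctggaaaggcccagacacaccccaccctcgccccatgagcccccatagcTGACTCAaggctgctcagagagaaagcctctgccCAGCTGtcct

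The windows differ in base composition. Over the listed 300 bases, 50 of which follow the start, G and C made up 71.7% at Tmem9b, 83.3% at Frmpd1, 60% at Arl10, 66.3% at Psmd12 and 57.3% at Klhl40. The ratio of observed to expected CpG was 0.857, 0.884, 0.526 and 0.609 at the first 4 genes and 0.162 at Klhl40, the lowest of the 5. Klhl40 held an AP-1 match that begins at −44 from the start and an E-box at −10, Tmem9b an E-box at −35, Frmpd1 E-boxes at −193 and −178 and SP/KLF matches at −214 and −14, and Psmd12 an ETS match at −17 and SP/KLF matches at −170 and −154. Arl10 held none. Among all 32851 listed windows of 300 bases, 16.3% hold CAGCTG, 7.81% TGANTCA, 25.6% GGGCGGG and 8.86% CCGGAAG. A match is a stretch of letters and not a bound factor. Composition and motifs over the whole set of promoter genes are not reported here, because windows were listed for 56 of the 78 genes, under the 80% set as a minimum.

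Among control NT peaks at gained sites that the study places in gene bodies, the widest were in Satb1 and Dmrt3. Satb1 encodes an organizer of chromatin (chr17:51952408-51952703, 536 bp), and Dmrt3 is a transcription factor gene (chr19:25697046-25697551, 530 bp). Next were Cspg5, a neural proteoglycan gene (chr9:110148599-110148784, 470 bp), Il17d, a cytokine gene (chr14:58144174-58144839, 433 bp), and Zic1, a zinc finger factor gene (chr9:91259952-91260329, 431 bp). Toca1 peaks were present at Satb1 (320 bp), Cspg5 (1036 bp) and Il17d (841 bp), and absent at Dmrt3 and Zic1. The site in Zic1 lay 808857 bp from the nearest donor peak and that in Satb1 229358 bp.

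Outside genes, the widest control NT peak on a gained site had 6330415G19Rik as the closest gene (chr17:23677738-23678154, 705 bp after control NT and 435 bp with Toca1). Those closest to Ccdc6 (chr10:69519503-69520318, 536 bp), BB123696 (chr13:52924306-52924634, 509 bp) and Arhgap27 (chr11:103186393-103186888, 503 bp) had no Toca1 peak. The site closest to Cdkn2c, an inhibitor of cyclin-dependent kinases, had a peak in both lists (chr4:109329488-109330664), with 1177 bp in C2C12 cells, 449 bp after control NT and 841 bp with Toca1.

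Ranked by the width of the C2C12 peak, the sites found in both NT lists were led by 3 without a held name. The widest, chr5:132012974-132014914, was 1941 bp wide in C2C12 cells, 423 bp after control NT and 873 bp with Toca1, and lay 61209 bp from a donor peak. The next were chr8:85387074-85388676 (1603, 473 and 799 bp) and chr19:32830283-32831583 (1301, 232 and 779 bp), the latter 100 bp from a donor peak. Entpd5, which encodes a nucleotide hydrolase, followed (chr12:85749257-85750520) with 1264, 490 and 1231 bp. Galc, a lysosomal enzyme gene, had 1187, 419 and 759 bp (chr12:99496735-99497921), and Prkacb, a catalytic subunit of protein kinase A, had 1130, 366 and 1115 bp (chr3:146475305-146476434). Tmem9b and the site near Cdkn2c were also among the widest 10, with the unnamed sites chr6:146450131-146451273 (1143, 444 and 304 bp) and chr7:125848571-125849655 (1085, 197 and 663 bp). In 8 of these 10 the Toca1 peak was wider than the control NT peak, the exceptions being Tmem9b and the site on chromosome 6. The site on chromosome 19 and that of Entpd5 were also found from 1000 cells.

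Among sites found with Toca1 only, the widest C2C12 peaks were chr18:15221993-15223667 (1675 bp, Toca1 peak 848 bp), chr2:126500277-126501878 (1602 bp, Toca1 peak 1264 bp) and chr3:122432107-122433619 (1513 bp, Toca1 peak 466 bp). They lay 20347, 30952 and 10153 bp from the nearest donor peak. Neither the control NT list nor the 1000-cell list held a peak at any of them.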

How the data were processed

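The data are ATAC-seq peak lists, 1 for each of 5 conditions, of which 4 define the sites and the C2C12 list from 1000 cells serves as a further comparison. Per the labels, processing by the submitters used Bowtie2 2.2.1, Picard and MACS2 2.1 with genome build mm9. The role of each tool, the filters and whether libraries were pooled before peak calling are not given in the sources used here. The deposited lists hold chromosome, start and end in bp, with no score, so depth is unknown. Lists were assigned to conditions by name.

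Starts were changed to 1-based. Peaks were called shared when they overlapped by 1 bp or more. Distances run from edge to edge. Width classes hold about 25% of the peaks compared. Gene names came from the study's tables by exact peak position, with values left out. Of named sites, the rule took the 10 with the widest C2C12 peak in both NT lists, the widest control NT peaks at promoters (10), in gene bodies (5) and in no gene (5), the 3 widest with Toca1 only and those at the edges of the overlap rule. Members and gene lists were chosen with earlier results of these data known. Overlap code was tested on simulated data. Alternatives were other overlap rules, widths, joining, autosomes only, distance from donor peaks and another C2C12 reference. Python 3.11.15, numpy 2.4.6, scipy 1.17.1 and matplotlib 3.10.9 were used.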

Additional observations from a re-analysis of the deposited data

How the results depend on the processing

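The 4 differences between shares kept their sign under every alternative run for them, and leaving out chromosome X moved no value past its interval. The 3 alternatives for the promoter difference were chosen after seeing the data. The settings impose part of each move by their construction, and otherwise the cause was not tested. Leaving out a replicate was not run, since the libraries of a condition share 1 list. No paired analysis was possible because the values come from no test between libraries.

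When sites less than 5000 bp from a donor peak were left out, 819 sites were gained (4.41% of the C2C12 peaks left), 15.3% after control NT only and 68.4% with Toca1 only. New peaks lay on a C2C12 peak in 8.23% (control NT) and 10.2% (Toca1) of cases, and the difference for new Toca1 peaks was 15.1 points. With C2C12 peaks also found from 1000 cells, 92 sites were gained (12.4%), 65.2% with Toca1 only and 22.8% in both lists. The shares of new peaks on such a peak were 1.28% and 1.02%, the differences 56.0 points (control NT) and 16.4 points (Toca1), 40.2% of sites were at least 5000 bp from donor peaks and the centres were 124.5 bp apart.

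The next 2 settings applied to donor peaks as well. A peak with a smaller overlap with a donor peak thus counted as free of it under the first, and a peak near one did not under the second. With a reciprocal overlap of at least 50%, 5.77% were gained, 75.5% with Toca1 only and 10.7% in both. The differences were 1.00 points (1000 cells), 28.0 points (control NT) and 8.60 points (Toca1). New peaks lay on C2C12 peaks in 9.04% and 16.6% of cases, 25.1% of sites were at least 5000 bp from donor peaks and the centres were 59.5 bp apart. With peaks within 500 bp counted as shared, 14.7% were found after control NT only, 67.8% with Toca1 only and 17.5% in both. The 1000-cell difference was 3.75 points, 12.4% of new control NT peaks lay on a C2C12 peak, 64.0% of sites were at least 5000 bp away and the centres were 197 bp apart.

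With peaks at least 250 bp wide, 9.18% were found after control NT only and 77.5% with Toca1 only. New peaks lay on C2C12 peaks in 17.9% and 16.1% of cases, 51.8% of sites were at least 5000 bp away, the centres were 120.5 bp apart and the promoter difference was 20.0 points. With peaks up to 150 bp apart joined, 5.56% were gained and 56.3% were at least 5000 bp away.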

Other observations

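Within 10000 bp of another gained site lay 229 gained sites, in 111 groups, and the other 1566 stood alone. The same count was not made for sites not gained, so it does not show whether gained sites cluster. No group held more than 3 sites, and 7 groups held 3. On chromosome 10 a group spans 1792 bp (chr10:23068720-23070511), and on chromosome 13 another spans 1457 bp (chr13:55572813-55574269). In both, Toca1 peaks covered all 3 sites and a control NT peak 1. The groups chr5:81450340-81451682, chr7:139507084-139509051 and chrX:137199017-137200359 were covered with Toca1 only. The group chr8:111228731-111247434 is the longest of the 7, at 18704 bp, with 1 of its sites covered after control NT and 2 with Toca1.

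Among gained sites found after control NT, the share found with Toca1 as well was compared by distance from donor peaks. It was 51.7% of 259 sites at least 5000 bp from any donor peak and 55.4% of 233 sites closer to one, a difference of −3.63 points whose interval runs from −12.3 to 5.17 points. Within 4 classes of C2C12 peak width the difference ran from −18.6 points (−34.6 to −1.07) to 2.47 points (−14.2 to 20.4). This choice of comparison was made after the lists had been seen.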
